A study of Saccharomyces cerevisiae with 8 samples.

Results

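The genes described here are the yeast old yellow enzyme genes OYE3 and OYE2 and 5 little-known genes, YLR460C, OSI1 (YKL071W), YLR108C, MRX16 (YDR132C) and SDL1 (YIL167W). OYE3 and the 5 little-known genes were picked because they were among the genes with the largest rises after methyl methanesulfonate (MMS) in these same arrays, and OYE2, the paralog of OYE3, was added for contrast. A probe set was taken where a member was its only gene symbol, which gave 8 of 8330 probe sets and 7 of 5580 named genes, with 2 probe sets for SDL1 and 1 for each of the other 6. Because the MMS change chose the members, their MMS values below are a description and carry no test.

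Total RNA of budding yeast, Saccharomyces cerevisiae, was measured on 8 one-colour arrays, 2 in each of 4 groups. These were wild-type yeast and an sgs1 null strain, each grown either without treatment or in the presence of MMS. All cultures were labelled as log phase. SGS1 encodes a RecQ-family DNA helicase, MMS is an alkylating agent that damages DNA, and the series was described as work on yeast ageing. The strain background, the MMS dose and the time of exposure were not stated in the labels, nor was it stated whether the paired arrays were grown as separate cultures. The p-values therefore reflect the spread between arrays, which may be technical.

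Old yellow enzymes are flavoproteins that take electrons from NADPH and pass them to the carbon double bond of unsaturated aldehydes and ketones, among them products of lipid oxidation. Budding yeast has the closely related OYE2 and OYE3, and both are known as genes of the oxidative stress response. YLR460C belongs to the quinone oxidoreductase branch of the medium-chain dehydrogenases, and OSI1 encodes a protein related to short-chain dehydrogenases. YLR108C and MRX16 are a pair of duplicate genes left by the ancient genome duplication of yeast, the first of unknown function and the second named for MIOREX, the mitochondrial organization of gene expression. SDL1 is annotated as a pseudogene in the reference strain. It carries a broken reading frame related to the serine dehydratase gene CHA1, and its entry also covers YIL168W.

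The label of the null strain was checked on SGS1 itself. Its normalized intensity lay between 354 and 882 on the 4 wild-type arrays and between 2.02 and 21.9 on the 4 null arrays, all of the latter below the floor of 97.1 to which low values were raised. Deposited array means lay between 1906 and 2000 and deposited medians spread by 25.4%, so arrays were quantile normalized. Intensities here are on that normalized scale, changes are differences of log2 intensity ± standard error from limma, and the level of one probe set cannot be set against that of another. After 368 features that were above the floor on fewer than 2 arrays had been left out, 7273 features remained, and all 7 members were among them.

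OYE3 was low without MMS and high with it in both strains. It read 1068 and 1047 in untreated wild type and 11345 and 12251 in wild type with MMS. In the null strain it read 1121 and 847 untreated and 10218 and 11870 with MMS. The 4 untreated arrays therefore lay close together, as did the 4 treated ones, and the strains overlapped at both treatments. The log2 change was 3.48 ± 0.24 in wild type, an 11.2-fold difference, and 3.50 ± 0.24 in sgs1 null, an 11.3-fold difference.

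OYE2 gave the same order of groups with a much smaller step. It read 8865 and 9286 in untreated wild type and 18787 and 15030 in wild type with MMS, against 8095 and 9772 in the untreated null strain and 16394 and 14638 in the null strain with MMS. All 4 treated arrays lay above all 4 untreated ones. The change was 0.89 ± 0.24 in wild type and 0.80 ± 0.24 in sgs1 null, or 1.85-fold and 1.74-fold. Among the 7273 features OYE2 ranked 664 from the top by its change in wild type, whereas OYE3 ranked 7. The step of OYE2 in wild type depended on the scaling of the arrays and was 0.56 with median centring and 0.70 on the deposited scale. Whether the probe sets of OYE2 and OYE3 share signal was not tested.

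YLR460C had the largest change in wild type among the members. It read 263 and 164 in untreated wild type and 2400 and 4329 with MMS, and 233 and 176 in the untreated null strain and 1625 and 2225 with MMS. The 4 untreated arrays overlapped between the strains, and with MMS both null arrays lay below both wild-type arrays, as they did for 13.6% of all features. The change was 3.96 ± 0.38 in wild type and 3.23 ± 0.38 in sgs1 null, or 15.5-fold and 9.40-fold. The replicate spread was wide, with an SD of 0.60 (log2, n = 2) in wild type with MMS.

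OSI1 was higher in the null strain than in wild type at both treatments. In untreated wild type it read 366 and 195, in the untreated null strain 721 and 423, in wild type with MMS 2738 and 2505, and in the null strain with MMS 4233 and 3132. No null array overlapped a wild-type array of the same treatment, and the null strain was above wild type in this way for 4.78% of all features. The MMS change was 3.29 ± 0.38 in wild type and 2.72 ± 0.38 in sgs1 null, or 9.79-fold and 6.59-fold.

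The duplicate genes YLR108C and MRX16 both showed large steps with MMS and differed in the untreated null strain. YLR108C read 458 and 508 in untreated wild type, 4286 and 4420 in wild type with MMS, 617 and 313 in the untreated null strain and 2944 and 3374 in the null strain with MMS. Its untreated null arrays lay on either side of the wild-type ones. Its treated null arrays lay below both treated wild-type arrays, as they did for 13.6% of all features. The change was 3.17 ± 0.33 in wild type and 2.84 ± 0.33 in sgs1 null.

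MRX16, the other gene of the pair, read 130 and 147 in untreated wild type, 1155 and 1216 in wild type with MMS, 172 and 231 in the untreated null strain and 958 and 836 in the null strain with MMS. Null arrays were thus above wild type without MMS and below it with MMS, with no overlap in either case. This was so for 1.55% of all features. The change was 3.10 ± 0.25 in wild type, or 8.57-fold, and 2.17 ± 0.25 in sgs1 null, or 4.49-fold. MRX16 was dim without MMS, near the floor of 97.1. With a floor at the 20th percentile its change came to 2.50 in wild type and 2.02 in sgs1 null.

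SDL1, the annotated pseudogene, was measured by 2 probe sets that moved alike with MMS. The dimmer one read 200 and 57.0 in untreated wild type, 1441 and 920 in wild type with MMS, 151 and 116 in the untreated null strain and 851 and 700 in the null strain with MMS. The brighter one read 409 and 219, 2475 and 1638, 449 and 250, and 1857 and 1394 in the same order of groups. One value, the 57.0 of the second untreated wild-type array, was below the floor and entered at the floor. The change in wild type was 3.04 ± 0.40 for the dimmer and 2.75 ± 0.42 for the brighter probe set, and in sgs1 null 2.54 ± 0.40 and 2.26 ± 0.42. Averaged over both, the change was 2.90 ± 0.40 in wild type and 2.40 ± 0.40 in sgs1 null, and the treated arrays of the strains overlapped. They overlapped for the brighter probe set too. For the dimmer one both treated null arrays lay below both treated wild-type arrays, as they did for 13.6% of all features. The strain difference averaged over treatments was -0.33 for the dimmer and -0.08 for the brighter probe set. Which transcript of this locus the probes detect was not tested.

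**Figure D1:**
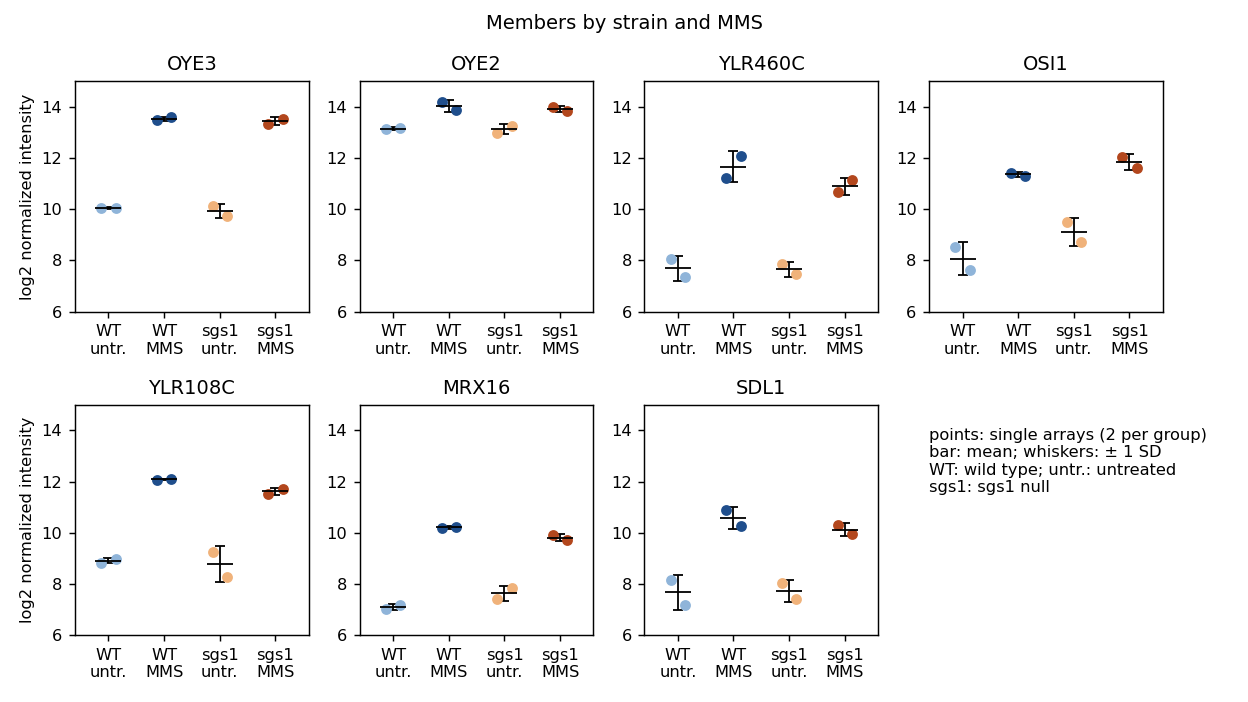
Log2 normalized intensity (vertical axis) of the 7 members on each array in the 4 groups of strain and MMS. Points are single arrays, the bar is the mean of 2 arrays and the whiskers are ± 1 SD. In each panel the 4 arrays with MMS lie above the 4 untreated ones, and the step is smallest for OYE2.

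For all 7 members, the 4 arrays with MMS lay above the 4 untreated ones, which was so for 12.8% of all features tested. In wild type, limma called 7.42% of the features after Benjamini-Hochberg adjustment at a threshold of 0.05 (540 features), 4.01% higher and 3.41% lower (292 and 248 features, or 254 and 334 with median centring). In sgs1 null it called 2.38% (173 features), 1.33% higher and 1.04% lower. Because the members were chosen by this change, these shares stand beside the members' values and nothing is read from them. By size, 13 features changed in wild type by at least the 2.90 of SDL1. Of these, 10 were named genes: the 6 members other than OYE2, and AAD6, ATR1, GPX2 and SRX1. The next feature below SDL1 was the aryl-alcohol dehydrogenase gene AAD4 at 2.81, and the one just above it SRX1 at 2.98. This count and order depend on the value of SDL1 in the main fit. That value lay between 2.41 and 3.38 with 1 array left out, and between 2.60 and 3.09 in the other alternatives.

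In the null strain the changes of the same 6 genes lay between 2.17 for MRX16 and 3.50 for OYE3, and 26 features changed by at least the 2.17 of MRX16. For 5 of the 6 genes, all but OYE3, the change was smaller in sgs1 null than in wild type. The size of the difference, null minus wild type, was -0.93 ± 0.35 for MRX16, -0.72 ± 0.54 for YLR460C, -0.57 ± 0.54 for OSI1, -0.50 ± 0.57 for SDL1, -0.33 ± 0.47 for YLR108C and 0.02 ± 0.34 for OYE3. A choice by large rises can by itself give such an order, and of the 292 features called higher in wild type, 246 (84.2%) also had the smaller change in sgs1 null. The difference for MRX16 depended on the floor, near which this gene lay without MMS. With the higher floor tried, its change was 2.50 in wild type and 2.02 in sgs1 null. Over all features, limma called 0 (0%) for a difference between the strains' MMS changes, with 229 at an unadjusted p under 0.05.

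**Figure D2:**
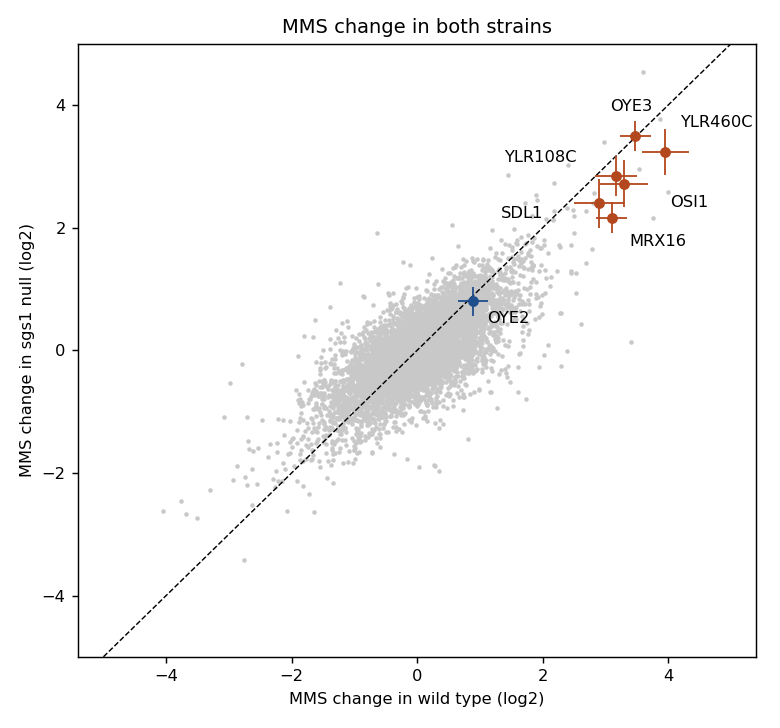
MMS change in wild type (horizontal axis, log2) against that in sgs1 null (vertical axis, log2) for 7273 features, in grey, and the 7 members, with bars of ± 1 standard error. The dashed line marks equal changes. OYE3 lies on the line at 3.48 and 3.50, the 5 little-known genes lie below it, and OYE2 lies at 0.89 and 0.80 within the cloud of other features.

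The difference between the strains, averaged over treatments, is orthogonal to the MMS change in each strain and was the test made on the members. It asks whether loss of SGS1 shifted their level regardless of MMS. None of the 7 members passed (limma, adjusted over 7273 features), and 1, OSI1, had an unadjusted p under 0.05, as did 9.78% of all features. In this comparison 0.344% of all features were called, 18 higher and 7 lower in the null strain.

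OSI1 was higher in sgs1 null by 0.76 ± 0.27, or 1.70-fold, with a 95% interval of 0.14 to 1.39 and an adjusted p of 0.427 by limma. Null arrays were above wild type without overlap at both treatments for OSI1 and for 4.78% of all features. Within each treatment the difference, which shares arrays with the choice of the gene and is given as a value, was 1.05 ± 0.38 untreated and 0.48 ± 0.38 with MMS.

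The other 6 members had averages nearer to 0, each with an interval that included it. YLR460C was at -0.40 ± 0.27 (interval -1.02 to 0.22), YLR108C at -0.30 ± 0.23 (interval -0.84 to 0.24) and SDL1 at -0.20 ± 0.28 (interval -0.86 to 0.45). The old yellow enzyme genes had the narrowest intervals of the 7, from -0.51 to 0.29 for OYE3 and from -0.47 to 0.32 for OYE2. MRX16 had an average of 0.06 ± 0.18 (interval -0.34 to 0.47), made of 0.53 ± 0.25 untreated and -0.40 ± 0.25 with MMS. A pattern without overlap in which the null strain was above wild type untreated and below it with MMS was found for 1.55% of all features. Equal levels in the strains are not shown, since the intervals reach to the bounds given on both sides of 0. For YLR460C, YLR108C, SDL1, OYE3 and OYE2 they reach farther below 0 than above it.

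**Figure D3:**
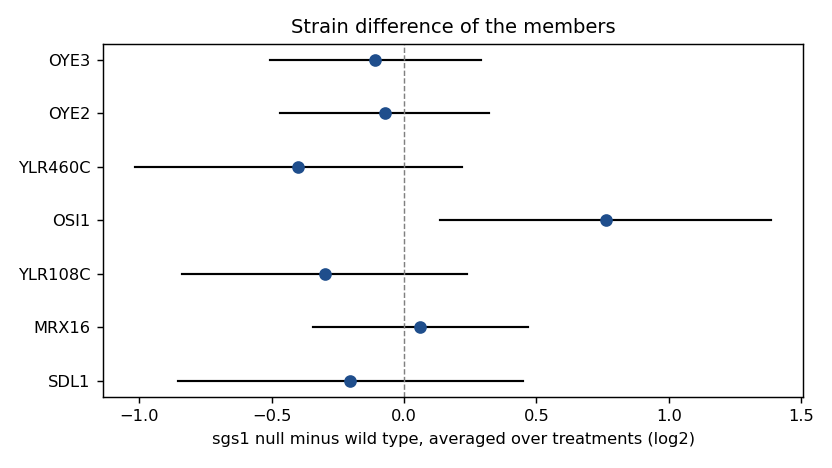
Difference of sgs1 null minus wild type, averaged over treatments (horizontal axis, log2), for the 7 members. Points are limma's estimates and lines their 95% intervals. The line of OSI1, from 0.14 to 1.39, lies to the right of 0, and the other 6 lines cross 0.

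The genes most like each member were found by the root mean square difference of their log2 values over the 8 arrays, after each gene's own mean had been taken off, among 5513 other named genes. For OYE3 they were SRX1, the sulfiredoxin gene, at 0.23, YLR108C at 0.31 and YLR460C at 0.35, against a median of 1.76 over all named genes. YLR460C in turn was nearest to OYE3, then to YLR108C at 0.45 and to the drug efflux gene ATR1 at 0.46. YLR108C was nearest to OYE3, to SRX1 at 0.32 and to ATR1 at 0.38. YLR460C and YLR108C thus both had OYE3 as their nearest gene.

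For the other 3 induced members, the 3 nearest genes were all different from those just named. The induced members did not fall into separate sets by this measure. SDL1 was nearer to YLR108C, at 0.41, than to MRX16 at 0.46 or OSI1 at 0.53. MRX16 was nearest to AAD4 at 0.27, to FRE1, a ferric reductase gene, at 0.30 and to FLR1, a drug efflux gene, at 0.31, and its duplicate YLR108C stood farther off at 0.47. SDL1 was nearest to RNA14, which acts in messenger RNA 3′-end processing, at 0.24, to FRE1 at 0.35 and to YML131W at 0.39. OSI1 had FRE1 at 0.39, RNA14 at 0.42 and AAD4 at 0.44. OYE2 was nearest to MCY1 at 0.08, VTC2 at 0.09 and MPD2 at 0.10, all with MMS changes between 0.71 and 0.99, and it stood 1.34 from OYE3. All these distances rest on the same 8 arrays, include the MMS change that chose the members, and are a description.

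Of 9 medium-chain dehydrogenase genes related to YLR460C, 2 rose in wild type and 2 in sgs1 null by limma's adjusted p, with medians of -0.01 and 0.09 against 0.02 and 0.01 over all features, of which 4.01% and 1.33% were called higher. YCR102C, a close relative of YLR460C of unknown function, rose by 2.54 ± 0.32 in wild type (adjusted p = 0.00765) and had 1.27 ± 0.32 in sgs1 null (adjusted p = 0.0897). YNL134C, another relative, rose by 1.33 ± 0.25 in wild type (adjusted p = 0.0236) and by 1.81 ± 0.25 in sgs1 null (adjusted p = 0.0187). ADH6, an NADPH-dependent alcohol dehydrogenase gene, rose by 1.26 ± 0.24 in sgs1 null (adjusted p = 0.04), with 0.84 ± 0.24 in wild type. YIM1 had 0.19 ± 0.41 and 0.35 ± 0.41. The count in wild type was 1 when untreated wild-type array 2 was left out and 0 when any of the other 3 wild-type arrays was, and in sgs1 null it was 0 without any 1 null array and 1 without any 1 wild-type array. Probe sequences were not used here, so whether related genes share signal was not tested.

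Of 7 short-chain dehydrogenase genes related to OSI1, 4 had a probe set of their own and 0 passed in either strain (limma, with 0 at an unadjusted p under 0.05), with medians of -0.24 and 0.07. YKL107W, the largest by MMS change averaged over strains, had 0.18 ± 0.35 in wild type, where its untreated arrays were at the floor, and 0.68 ± 0.35 in sgs1 null. CHA1, the catabolic serine and threonine dehydratase gene related to SDL1, had 0.68 ± 0.48 in wild type and 0.58 ± 0.48 in sgs1 null. ILV1, the biosynthetic threonine dehydratase gene, had -0.02 ± 0.49 and -0.15 ± 0.49. Neither of these 2 passed. Of 16 measured MIOREX genes other than MRX16, 0 passed in either strain by limma, with 4 and 3 at an unadjusted p under 0.05, and the median was 0.43 in wild type and 0.06 in sgs1 null. Their largest values were those of MRX20, -1.11 ± 0.29 in both strains. With the array number as a replicate block, 2 of the 16 rose and 1 fell in wild type.

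NADPH, the electron source of old yellow enzymes, is also used or made by the products of other genes. Of 8 other NADPH-dependent carbonyl reductase genes, 1 rose in each strain, where 4.01% of all features in wild type and 1.33% in sgs1 null were called higher. It was GRE2, the methylglyoxal reductase gene, by 1.70 ± 0.26 in wild type (adjusted p = 0.0137) and by 1.34 ± 0.26 in sgs1 null (adjusted p = 0.0466). Of 16 genes of NADPH supply, 1 fell in wild type and 0 passed in sgs1 null (2 at an unadjusted p under 0.05), with medians of -0.43 and -0.33. Over all features 3.41% were called lower in wild type. The gene that fell was SOL3, a phosphogluconolactonase gene of the pentose phosphate pathway, which fell by 1.28 ± 0.27 (adjusted p = 0.0327). ZWF1, which encodes the first enzyme of that pathway, had 0.96 ± 0.48 in wild type and 0.43 ± 0.48 in sgs1 null. Without any 1 of the 4 wild-type arrays, neither GRE2 nor SOL3 passed in wild type, and without any 1 of the 8 arrays GRE2 did not pass in sgs1 null.

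The list of 19 measured genes counted among oxidative stress targets of the transcription factor Yap1, a list drawn up with results of these arrays known, had the most changes. In wild type 11 rose and 0 fell while 8 did not pass (median 1.14), and in sgs1 null 9 rose and 0 fell while 10 did not pass (median 1.13). Of all features, 4.01% were called higher in wild type and 1.33% in sgs1 null, and the medians over all features were 0.02 and 0.01. AAD6, an aryl-alcohol dehydrogenase gene, lay at the floor on both untreated wild-type arrays, so its rise in that strain was at least 14.7-fold (adjusted p = 0.0014). SRX1 rose by 2.98 ± 0.29 in wild type and 3.40 ± 0.29 in sgs1 null, GPX2, a thiol peroxidase gene, by 3.55 ± 0.29 and 2.95 ± 0.29, and ATR1 by 3.76 ± 0.24 and 2.17 ± 0.24. AHP1, TSA1, SOD1 and GRX2 had values between 0.22 and 0.52 in both strains and did not pass. Nor did AAD14, another aryl-alcohol dehydrogenase gene, at -0.89 ± 0.26 in wild type and -0.58 ± 0.26 in sgs1 null, or CTT1, the cytosolic catalase gene, at -0.76 ± 0.62 and -0.72 ± 0.62. The count in wild type was 6 when untreated array 1, untreated array 2 or treated array 1 of that strain was left out and 7 when treated array 2 was. In sgs1 null it was 4 and 0 when untreated array 1 and 2 of the null strain were left out, and 3 and 4 when its treated array 1 and 2 were.

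Among 16 genes of stress transcription factors and their partners, 3 rose and 1 fell in wild type, and 1 rose in sgs1 null. Over all features, 4.01% were called higher and 3.41% lower in wild type, and 1.33% higher in sgs1 null. YAP1 itself rose by 1.82 ± 0.25 in wild type (adjusted p = 0.00955) and by 1.55 ± 0.25 in sgs1 null (adjusted p = 0.0295). YBP1, which encodes a Yap1-binding protein, rose by 1.79 ± 0.38 in wild type (adjusted p = 0.0327). RPN4, the proteasome gene activator, rose by 1.29 ± 0.24 in wild type, and the general stress factor gene MSN4 fell by 1.26 ± 0.24. CAD1, the YAP1 relative, had 1.42 ± 0.37 and 1.33 ± 0.37 and did not pass. Without any 1 of the 4 wild-type arrays, 0 of these genes passed in wild type, and without any 1 of the 8 arrays 0 passed in sgs1 null.

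Some growth phase markers fell with MMS. Of 10 glucose-repressed genes, 4 fell in wild type and 6 did not pass, and in sgs1 null 2 fell and 8 did not pass. Of all features, 3.41% and 1.04% were called lower. The medians of the list were -0.68 and -0.49, and 2 of its genes had values above 0 in each strain. Those that fell included ADH2 (-2.88 ± 0.24 and -1.89 ± 0.24) and SPG4 (-2.29 ± 0.33 and -2.10 ± 0.33). In untreated wild type ADH2 had a mean log2 intensity of 11.4, against 8.52 with MMS. Without any 1 wild-type array 1 gene fell in wild type and 1 in sgs1 null, and without any 1 null array 3 fell in wild type and 0 in sgs1 null. Averaged over treatments, 8 of the 10 genes had values above 0 in sgs1 null against wild type, with a median of 0.58. ADH2 went the other way at -0.81 ± 0.17, and HSP12 was at -0.03 ± 0.16. By limma, 8 genes had an unadjusted p under 0.05, but 0 passed after adjustment. These 8 included ADH2 and left out JEN1, which was at 0.28 ± 0.25. The part of growth phase in the members' MMS values, or in the strain value of OSI1, was not tested.

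Across the 9 lists of related genes, 100 genes were measured, and 0 of them passed for the averaged strain difference by limma. An unadjusted p under 0.05 was found for 22 of them, 8 of which were glucose-repressed genes, and for 9.78% of all features. Several of the lists' MMS counts changed with a replicate block, as given in the closing section.

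**Figure D4:**
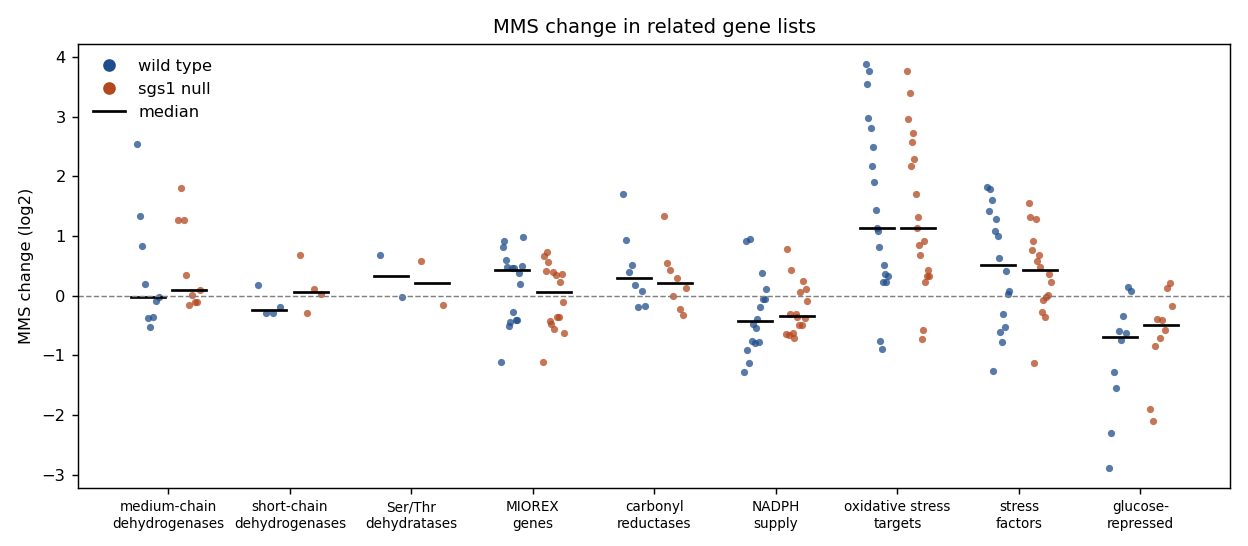
MMS change (vertical axis, log2) of each measured gene in 9 lists related to the members, in wild type (blue) and sgs1 null (orange), with the median of each list as a bar. The oxidative stress targets reach up to 3.88, the value of AAD6 against the floor, while most dehydrogenase relatives, MIOREX genes and NADPH supply genes lie within about 1 of 0.

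The nearest annotated gene on each side of the members was looked up in the RefSeq gene table. Of the 14 neighbours, 10 were measured under a symbol of their own, and 0 of them were called by limma in either strain (2 in each at an unadjusted p under 0.05), where 7.42% and 2.38% of all features were. AHP1, the peroxiredoxin gene next to YLR108C, had 0.52 ± 0.24 in wild type and 0.22 ± 0.24 in sgs1 null. YDR131C, next to MRX16, had the highest change of the 10 in wild type, 0.81 ± 0.22. The genes on either side of OYE3, COX10 and DAP1, had -0.47 ± 0.33 and -0.68 ± 0.36 in wild type and -0.07 ± 0.33 and -1.12 ± 0.36 in sgs1 null, where the value of DAP1 was the farthest from 0 of the 10. STB5, a transcription factor gene next to OYE2, had 0.07 ± 0.29 in wild type. YLR460C lies between GAB1, at 0.02 ± 0.24, and the seripauperin gene PAU4, at -0.77 ± 0.33, both in wild type.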

How the data were processed

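The authors deposited linear intensities, 1 for each probe set on each array. The array software and background correction are not given in the labels, and how the values were scaled and centred is unknown. The deposited medians were 840.05 and 775 (untreated wild type), 839.75 and 946.65 (wild type with MMS), 902.45 and 874.4 (untreated sgs1 null) and 878.5 and 971.6 (sgs1 null with MMS).

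Of 8363 probe sets, 32 controls and 1 with a missing value were left out. Gene names came from the platform annotation, checked against the RefSeq table of assembly R64, with 0 symbols updated. Of the probe sets, 6269 had 1 symbol, 309 several and 1752 none. Arrays were quantile normalized, values below the 10th percentile (97.1) were raised to it, and log2 values of probe sets of one gene were averaged. Features above this floor on fewer than 2 arrays were left out, since a feature at the floor on all 8 arrays (257 features) has no variance. The 4 group means were fitted with limma 3.58.1 in R 4.3.3 (4 residual and 3.97 prior degrees of freedom), and tests were two-sided with Benjamini-Hochberg adjustment over 7273 features. The number of arrays limits the precision.

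Members, lists and the treatment of low values were chosen with earlier results of these data known. Named genes were the 7 members, SGS1, up to 4 genes per list with the largest MMS change averaged over strains, the 3 genes most like each member and the members' neighbours. AAD4, ZWF1, RPN4, MSN4, AHP1, TSA1, SOD1, GRX2, AAD14 and CTT1 were also named from the lists after their values were seen. Promoter motifs and protein matches that had been planned were not analysed here. The fit was tested on simulated data, with changes put into features well above the floor. Of 100 simulated 2-fold changes it called 50% for the averaged strain difference and 16% for MMS in wild type. Of 100 simulated 4-fold changes it called 100% and 97%. Many 2-fold changes may therefore be missed. The shares may differ in the data, since all other simulated features were unchanged and the simulated noise was independent between arrays. In the data 24.2% of features had an unadjusted p under 0.05 by limma for MMS in wild type. Alternatives are given in the closing section.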

Additional observations from a re-analysis of the deposited data

How the results depend on the processing

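For the 7 members, no MMS change reversed its sign in the 17 alternatives tried, and none of the averaged strain differences passed in any alternative that gave an adjusted p. Averaged strain differences near 0 changed sign 4 times. With 1 array left out, OYE2 ranged from -0.15 to 0.0074 (positive when treated wild-type array 1 was dropped), MRX16 from -0.046 to 0.17 (negative when untreated null array 2 was dropped) and SDL1 from -0.45 to 0.041 (positive when untreated wild-type array 1 was dropped). With a floor at the 20th percentile MRX16 was at -0.17. For OSI1 the value lay between 0.53 and 0.99, with adjusted p from 0.15 to 0.799. Counts over all features moved more. The 25 features called for the averaged strain difference became 12 with all features kept, a fit with 0.986 prior degrees of freedom. In sgs1 null, the 173 features called for MMS became 93 when the floor was applied to values at or below 0 alone. Leaving out 1 array gave 1 to 12 features for the strain difference, 32 to 395 for MMS in wild type and 1 to 47 for MMS in the null strain. The strain difference had 1 when untreated null array 1 or 2, treated null array 2 or untreated wild-type array 2 was dropped, 2 for untreated wild-type array 1, 8 for treated array 1 of either strain and 12 for treated wild-type array 2. MMS in wild type had 35 and 33 for untreated wild-type arrays 1 and 2 and 32 and 53 for treated arrays 1 and 2. MMS in the null strain had 13 and 1 for its untreated arrays 1 and 2, 6 and 8 for its treated ones, 34 when any untreated wild-type array and 47 when any treated wild-type array was dropped. Array 2 of every group is marked rep in its label. Deviations from the group means correlated between groups at -0.08 to 0.67, above 0.1 for 4 of 6 pairs of groups. The labels do not say what the mark stands for, so it was not taken to pair arrays. Deviations shared under the mark were therefore left in the spread of the main fit. With it as a replicate block, 38 features were called for the strain difference, 1086 for MMS in wild type and 526 for MMS in the null strain. In wild type the block moved the NADPH supply genes from 1 that fell to 4 that fell and 1 that rose, the MIOREX genes from 0 called to 2 that rose and 1 that fell, the stress factor genes from 3 to 6 that rose, and the oxidative stress targets from 11 that rose to 12 that rose and 1 that fell. In sgs1 null the stress factor genes went from 1 that rose to 3 that rose and 1 that fell. The medium-chain relatives went from 2 to 3 that rose in each strain.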
